A study of Mus musculus with 22 samples.

Results

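The genes described here encode the proteins of the mitochondrial ribosome, and were taken as every symbol in the deposited tables made of Mrpl or Mrps, a number and at most 1 further letter. Of 52526 distinct symbols, 78 had this form, and 76 of them (28 Mrps and 48 Mrpl genes) were above the tables' lowest value of 1 CPM (reads per gene relative to all reads of a mouse) in at least 5 of the 22 mice. These 76 are 76 of the 15138 genes that were tested. All mice were female C57BL/6J, 7 to 8 weeks of age, and lived for 2 weeks with a running wheel on a hub or, as hub controls, with the hub alone. All then received EO771 cells, a mammary cancer line of the same strain that carried firefly luciferase, in the left mammary fat pad number 4. Liposomes holding either PBS, a buffer, or clodronate, which is toxic to the phagocytic cells that engulf it, were injected intravenously 24 hours before engraftment and again with it, and the whole pad was taken 24 hours after engraftment. The groups held 6 mice each with PBS (hub control and wheel-running) and 5 mice each with clodronate.

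The mitochondrial ribosome is built of a small subunit, which reads the messenger RNA, and a large subunit, which joins amino acids. It makes the handful of proteins encoded by mitochondrial DNA, all of them subunits of the respiratory chain and ATP synthase. Its RNA comes from mitochondrial DNA, but all its proteins come from nuclear genes and are imported. Some of these proteins have a counterpart in the bacterial ribosome (45 of the 76 genes), and the others are counted as particular to mitochondria (31 of the 76). The latter include Mrps18a and Mrps18b, although their proteins are related to that of Mrps18c, which has such a counterpart. Gene symbols mostly tell the subunit, with exceptions: the proteins of Mrps18a and Mrps30 sit in the large subunit, so that 50 of the 76 genes encode large subunit proteins and 26 small subunit proteins. White fat and mammary epithelium hold fewer mitochondria than muscle or brown fat, and all of these can be present in a mammary pad.

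The libraries read the 3′ ends of transcripts, about 1 read a transcript whatever its length, so levels can be compared between genes. Depth was 13256467 to 20484578 reads a mouse (median 16293026), of which 57.4% to 64.6% were assigned to genes. The 10 white adipocyte markers summed to between 11206.6 and 30910.7 CPM in every mouse, and the 9 mammary epithelial markers to between 333.8 and 3816.2 CPM, so that the defining genes of both tissue parts were present. Lymphocyte markers stood out in 5 mice: 1 hub control and 1 wheel-running mouse with PBS, and 3 wheel-running mice with clodronate. Several results are given both with and without those 5 mice. Without them, only replicates 1 and 2 of the wheel-running mice with clodronate remain. Since the tissue was measured in bulk, fewer cells of a type and less RNA per cell cannot be told apart.

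The 76 genes were expressed at moderate and rather even levels. Their mean over the 22 mice had a median of 23.1 CPM (middle 50% of the genes 16.2 to 31.5 CPM), which was above 71.3% of the genes tested, and corresponded to a median of 370 reads a mouse. The highest were Mrps15 with a mean of 63.6 CPM, Mrpl34 with 60.4 CPM, Mrpl17 with 57.5 CPM, Mrps6 with 52.1 CPM and Mrpl20 with 50.9 CPM, all of them subunit proteins with bacterial relatives. Their order is not firm: Mrps15 ran from 39.7 to 84.1 CPM between mice and Mrpl17 from 42.3 to 84.1 CPM. The lowest were Mrps18b with 1.15 CPM, Mrpl23 with 1.56 CPM, Mrps10 with 4.95 CPM, Mrpl22 with 5.61 CPM and Mrps33 with 5.97 CPM. All 76 genes were thus within a range of 1.15 to 63.6 CPM, and 71 of them were above the lowest value in every mouse.

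The genes of the Mrps18 family, which encode 3 related proteins, were far apart in level. Mrps18c averaged 21.4 CPM, Mrps18a 17.5 CPM and Mrps18b 1.15 CPM. Mrps18b was only just inside the filter. Outside it were Mrps36, whose protein has since been assigned to the ketoglutarate dehydrogenase complex, above 1 CPM in 3 of 22 mice with at most 2.07 CPM, and Mrpl53, at the lowest value in all 22. A low value need not mean a low transcript. In 14 of the 78 genes, a stretch of at least 100 bases at the transcript end has a near-identical match in a gene elsewhere in the genome. Among the 14 are Mrps18b, Mrpl23, Mrps10, Mrps21, Mrps33, Mrpl22 and Mrpl48. Another is Mrpl20, where matches were found in 27 genes of other names. The copy Mrpl23-ps1 was listed above Mrpl23 itself in 18 of 22 mice, with a median of 2.73 CPM. Reads that mapped to more than 1 place (16.6% to 19.9% of the reads of a mouse) were listed apart and assigned to no gene. How the other reads were divided between genes with such matches is not given in the sources used here. The levels of these genes are thus uncertain.

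Differences between groups were tested with limma on log2(CPM + 1), a scale that understates the differences of the lowest genes, with p-values adjusted over all 15138 genes. Below, SE is the standard error of a log2 difference, and a gene is called where its adjusted p is under 0.05. For the family as a whole, the level of a mouse is the mean of log2(CPM + 1) over the 76 genes.

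The family level was 4.58 ± 0.15 (SD, n = 6) in hub control mice and 4.44 ± 0.077 (SD, n = 6) in wheel-running mice given PBS. With clodronate it was 4.30 ± 0.093 (SD, n = 5) in hub control mice and 4.28 ± 0.10 (SD, n = 5) in wheel-running mice. With PBS, hub control mice ran from 4.38 to 4.81 (median 4.59) and wheel-running mice from 4.30 to 4.52 (median 4.46), so these groups overlapped. The 5 hub control mice with clodronate were at 4.39, 4.34, 4.15, 4.33 and 4.32, and the 5 wheel-running mice with clodronate at 4.12, 4.24, 4.36, 4.34 and 4.35. All 10 clodronate mice were thus below 5 of the 6 hub control mice with PBS, and between the clodronate groups the levels overlapped almost wholly. The highest mouse of all was hub control replicate 1 with PBS, at 4.81: 68 of the 76 genes were above their own median there, and 25 of them had their highest value of all 22 mice in it.

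**Figure D1:**
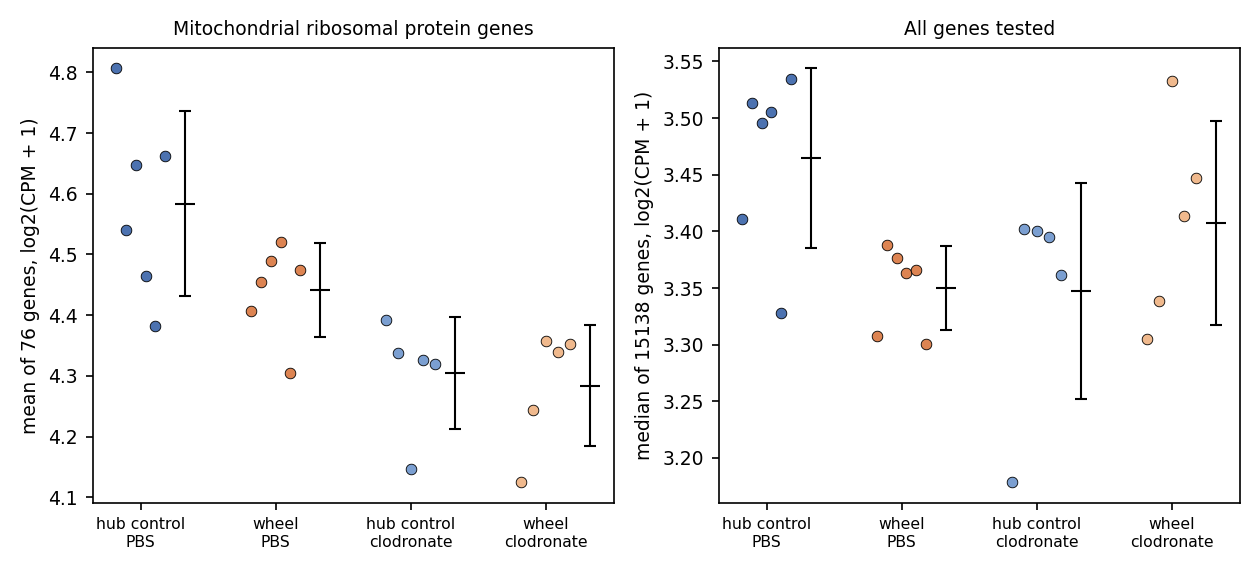
Left, mean log2(CPM + 1) of the 76 mitochondrial ribosomal protein genes in each mouse (points) with the group mean ± SD (bars); right, the median of all 15138 genes tested in the same mice. The left axis shows hub control mice with PBS highest, from 4.38 to 4.81, and all clodronate mice at or below 4.39; neither axis starts at 0.

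The first question was whether 2 weeks of wheel running went with a difference in the family with PBS liposomes. No member was called, as was the case for 0% of all genes tested. Of the 76 members, 57 were lower in wheel-running mice, against 63.8% of all genes tested, which makes 75% of the members. Their median log2 difference was -0.14, with the middle 50% of the members between -0.28 and -0.0081, and the median of all genes was -0.085. Relative to the median of all genes, the members' median was at -0.056 on the log2 scale. With upper-quartile scaling, which brings the median of all genes to -0.0012, 49 of 76 members were lower and their median was -0.043. In the family level the difference was -0.14, or -0.098 without hub control replicate 1, where the SD between mice within groups was 0.11.

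At an unadjusted p under 0.05, 7 members were lower and 0 higher with the wheel, against 4.12% of all genes lower and 0.799% higher. Mrpl13, which was singled out because of its low values in these mice, is 1 of the 7. In no member were the 2 groups of mice fully apart, which 0.218% of all genes were in the lower and 0.0462% in the higher direction. By symbol, 40 of the 48 Mrpl genes were lower with a median of -0.17, and 17 of the 28 Mrps genes with a median of -0.10. Of the genes with a bacterial counterpart 37 of 45 were lower, and of the others 20 of 31. The difference between these subgroups was not tested.

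Mrpl13, a large subunit protein with a bacterial relative (gene on the minus strand of chromosome 15, 55534094 to 55557748, GRCm38), had the lowest difference of the family. In hub control mice with PBS it ran from 21.0 to 36.1 CPM with a median of 29.96 CPM, and in wheel-running mice from 7.70 to 29.3 CPM with a median of 16.3 CPM. Of the 6 wheel-running mice 4 were below every hub control mouse, while replicates 4 and 6, at 29.3 and 25.4 CPM, were inside the control range. The difference was -0.81 ± 0.23 (SE) on the log2 scale. As Mrpl13 was singled out for this difference, its values with PBS are a description and carry no test; it was not called. With clodronate, Mrpl13 was at 19.3, 20.2, 18.1, 23.2 and 25.3 CPM in the 5 hub control mice and at 20.2, 25.3, 15.9, 20.6 and 21.4 CPM in the 5 wheel-running mice. These groups covered each other, with a difference of -0.039 ± 0.25 (SE), an exact permutation p of 0.754 and an adjusted limma p of 0.983.

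No other member had a difference as far below 0 as Mrpl13. Set against the mean of the other 75 members in the same mouse, Mrpl13 was between -0.0045 and 0.76 log2 units in hub control mice (median 0.36) and between -1.20 and 0.40 in wheel-running mice (median -0.33). Among the wheel-running mice replicate 5, at 7.70 CPM (105 reads), stood lowest and replicate 4 stood level with the controls. With clodronate the same measure ran from -0.051 to 0.40 in hub control mice and from -0.28 to 0.48 in wheel-running mice.

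Next lowest was Mrps7 (plus strand of chromosome 11, 115603925 to 115608036, GRCm38), which lies in the head of the small subunit where messenger and transfer RNA pass. With PBS it ran from 29.0 to 48.5 CPM (median 36.9) in hub control mice and from 19.7 to 39.2 CPM (median 21.7) in wheel-running mice. Replicate 6 alone, at 39.2 CPM, kept the groups from being apart, since the other 5 wheel-running mice were at or below 22.6 CPM. The difference was -0.62 ± 0.18 (SE), with an adjusted limma p of 0.961. An exact two-sided permutation among 924 splits of the 12 mice gave a p of 0.0130. Mrps7 was picked among the members for this same difference, so the permutation p is a description and carries no test. The transcript end of Mrps7 lies over that of Mif4gd on the opposite strand, and whether counting used the strand is not given in the sources used here.

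Other small subunit members were also lower. Mrps6, placed on the platform of the subunit, had medians of 71.2 CPM in hub control and 43.7 CPM in wheel-running mice, with ranges of 46.9 to 93.5 CPM and 27.5 to 77.9 CPM and a difference of -0.56 ± 0.27 (SE, adjusted p = 0.987). Mrps23, which has no bacterial relative, had medians of 36.6 and 26.4 CPM, with ranges of 27.1 to 44.2 CPM and 18.2 to 32.0 CPM and a difference of -0.50 ± 0.18 (SE, adjusted p = 0.987). In both genes the ranges overlapped. Of the large subunit, Mrpl51, Mrpl48 and Mrpl33 made up the 7, with differences of -0.38, -0.40 and -0.35; Mrpl48 and Mrpl33 are named after their values were seen.

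The other 19 members were higher in wheel-running mice, against 36.2% of all genes, none at an unadjusted p under 0.05. Mrpl46, a large subunit protein without a bacterial relative, was 0.58 ± 0.35 (SE) higher, and its hub control mice ran from 1.498 to 19.1 CPM. The low end was a single mouse, replicate 5, and wheel-running mice ran from 10.5 to 24.9 CPM. Mrps27, an RNA-binding small subunit protein, was 0.53 ± 0.30 (SE) higher, Mrps10 0.48 ± 0.33 (SE) and Mrpl37 0.27 ± 0.16 (SE), each with an adjusted p of 0.987. Since Mrps10 also has a near-identical copy, its level is uncertain.

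**Figure D2:**
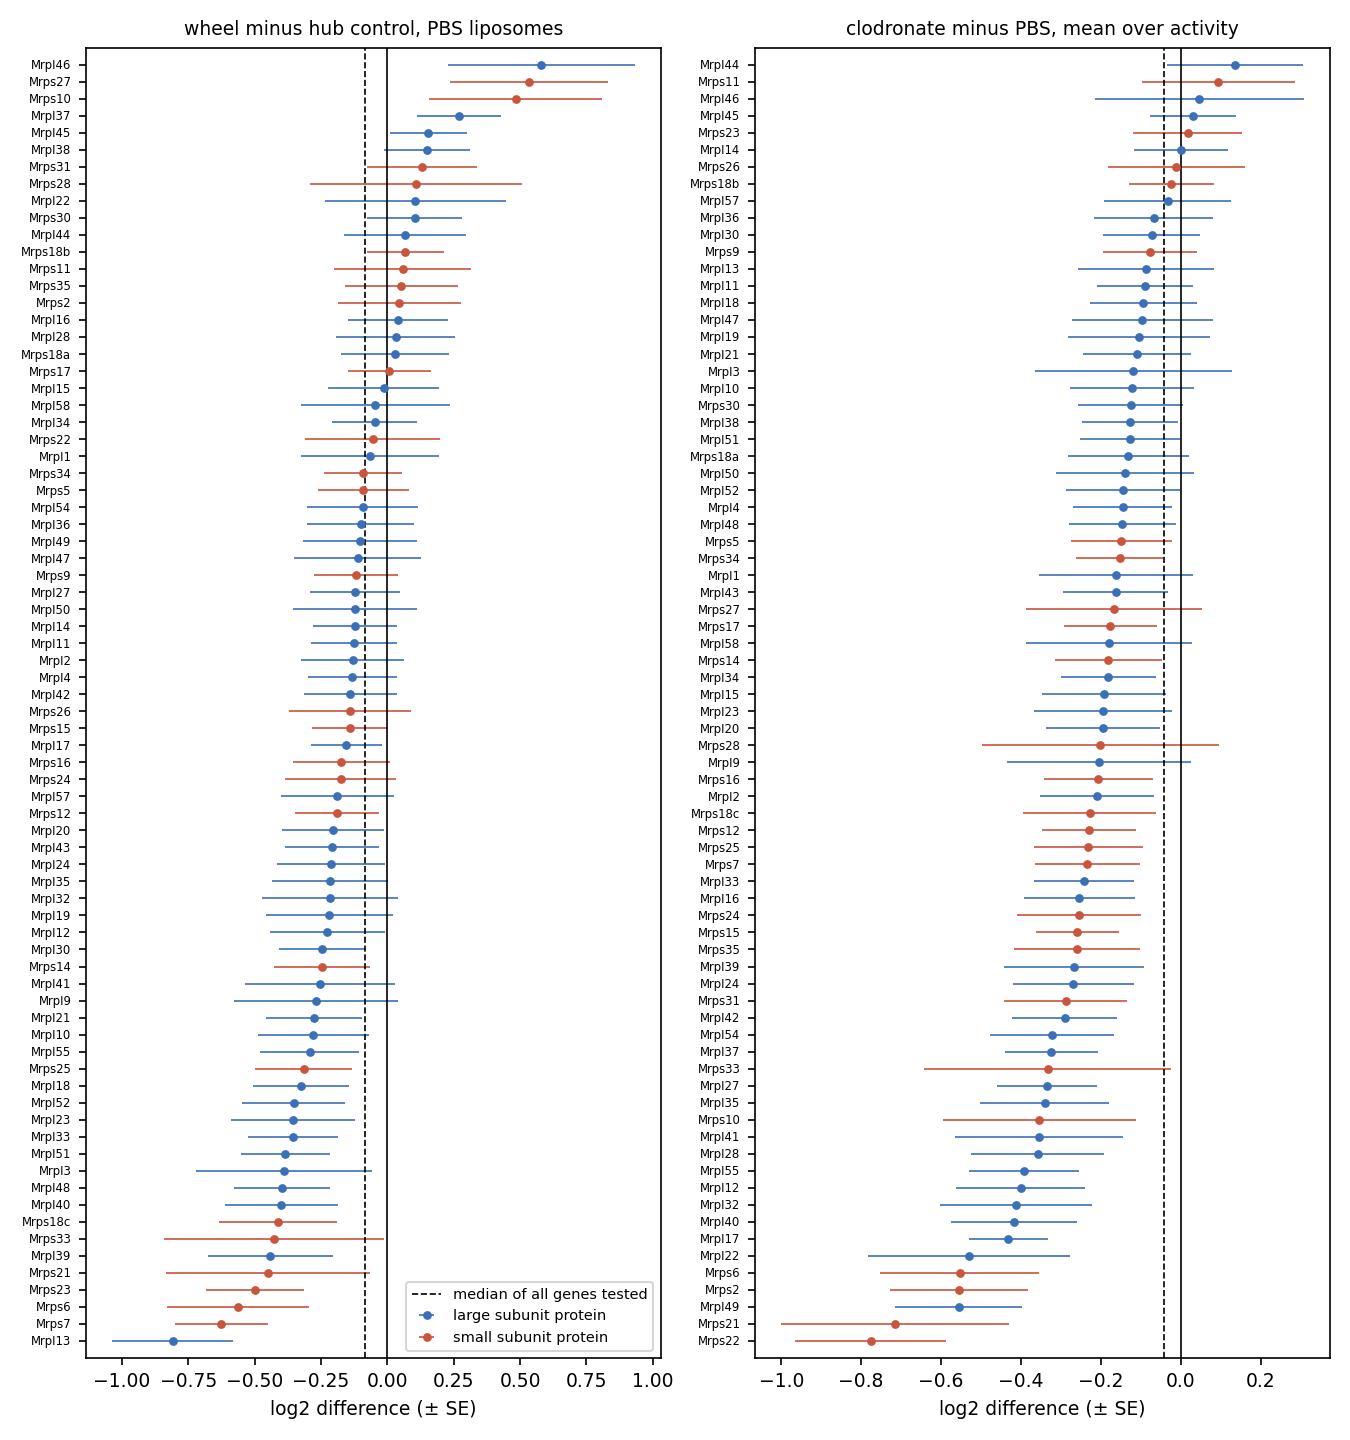
Log2 difference ± SE of each of the 76 genes, sorted by size, for wheel-running against hub control mice with PBS liposomes (left) and for clodronate against PBS liposomes over both activities (right). The dashed line is the median of all genes tested, -0.085 on the left and -0.042 on the right; on the left 57 and on the right 71 genes lie below 0, and the 2 panels have different scales.

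Some contents of the pads moved with activity too. With PBS liposomes all 9 skeletal muscle markers were lower in wheel-running mice (median log2 difference -1.91), with summed levels of 22.7 to 2876.3 CPM in hub control mice and 17.4 to 316.3 CPM in wheel-running mice. The 7 markers of dividing cells were all lower as well (median -1.004), with sums of 7.83 to 257.8 CPM and 15.6 to 256.4 CPM. None of these markers was called, both sums overlapped between groups, and no marker of either list was at the lowest value in all mice of a group. Their part in the members' differences was not tested.

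With clodronate liposomes the wheel differences of the members lay evenly around 0. No member was called, and 1 of 15138 genes was (0.00661%). Of the 76 members 39 were lower with the wheel and 37 higher, against 49.3% and 50.6% of all genes, with a median log2 difference of -0.0066, where all genes had 0.0045. Scaling to reads assigned to genes turned the sign, with 30 of 76 members lower and a median of 0.063, where all genes had 0.064. Without the 5 mice rich in lymphocyte markers, 47 of 76 were lower with a median of -0.10, where all genes had -0.042. Called in that fit were 12 of 15138 genes, and no member. These results rest on only replicates 1 and 2 of the wheel-running mice, whose family levels were the lowest of their group (4.12 and 4.24).

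At an unadjusted p under 0.05, 7 members were again lower and 0 higher, against 3.40% of all genes lower and 7.04% higher. Mrpl54, a large subunit protein without a bacterial relative, was lowest. It was at 29.5, 34.5, 31.5, 25.2 and 28.1 CPM in hub control mice and at 17.5, 29.0, 15.8, 12.3 and 19.1 CPM in wheel-running mice, so that only replicate 2 of the wheel-running mice reached the control range. The difference was -0.68 ± 0.23 (SE), with an exact permutation p of 0.0238 among 252 splits and an adjusted limma p of 0.266. Mrpl54 was picked among the members for this same difference, so the permutation p is a description and carries no test. With PBS liposomes Mrpl54 differed by -0.092 ± 0.21 (SE).

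Mrpl14, a large subunit protein with a bacterial relative, was the 1 member whose groups were apart, against 0.601% of all genes apart in this direction and 0.667% in the other, and it is named here after its values were seen. Hub control mice were at 38.7, 36.4, 42.9, 40.9 and 42.1 CPM, and wheel-running mice at 33.5, 36.1, 25.3, 28.6 and 31.2 CPM. The gap was narrow, between 36.1 and 36.4 CPM, and the difference was -0.38 ± 0.17 (SE, adjusted p = 0.441). On the high side, Mrpl9 was 0.55 ± 0.34 (SE) higher in wheel-running mice. There, 1 mouse at 21.8 CPM stood far above the other 4, which were at 6.99 to 9.06 CPM.

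Cell contents differed between these groups as well. All 12 lymphocyte markers were higher in wheel-running mice with clodronate (median log2 difference 2.60), each at an unadjusted p under 0.05. Their sums, with the lowest value counted as 0, were 0 to 18.9 CPM in hub control mice and 3.17 to 846.9 CPM in wheel-running mice. Of the white adipocyte markers 8 of 10 were lower (median -0.26), with sums of 11206.6 to 28948.9 CPM and 15186.9 to 23035 CPM, and of the mammary epithelial markers 7 of 9 (median -0.49), with sums of 670.8 to 3816.2 CPM and 458.8 to 1452.6 CPM. Of the skeletal muscle markers 8 of 9 were lower (median -1.09), with sums of 25.6 to 22872.1 CPM and 24.4 to 10617.5 CPM. None of these markers was called, and their part in the members' differences was not tested.

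The 2 wheel comparisons use different mice, so their differences can be set side by side. The spread of each gene was estimated from all mice together, so their p-values are not independent. Of the 76, 33 were lower with both liposomes (32.9% of all genes were), 24 were lower with PBS and higher with clodronate, 6 the reverse, and 13 higher with both. Lower with both at an unadjusted p under 0.05 were 3 members, Mrps6, Mrpl51 and Mrpl48, against 44 of all genes tested (0.291%). Mrps6 was at 58.0, 46.0, 22.7, 82.5 and 55.4 CPM in hub control mice with clodronate and at 45.6, 24.4, 35.8, 21.8 and 29.3 CPM in wheel-running mice with clodronate. Its difference there was -0.67 ± 0.29 (SE, adjusted p = 0.402), close to the -0.56 with PBS, and the groups overlapped again. Mrpl51 differed by -0.38 ± 0.17 (SE) with PBS and by -0.49 ± 0.18 (SE) with clodronate, and Mrpl48 by -0.40 ± 0.18 (SE) and -0.42 ± 0.20 (SE). None of the 3 was called in either comparison.

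**Figure D3:**
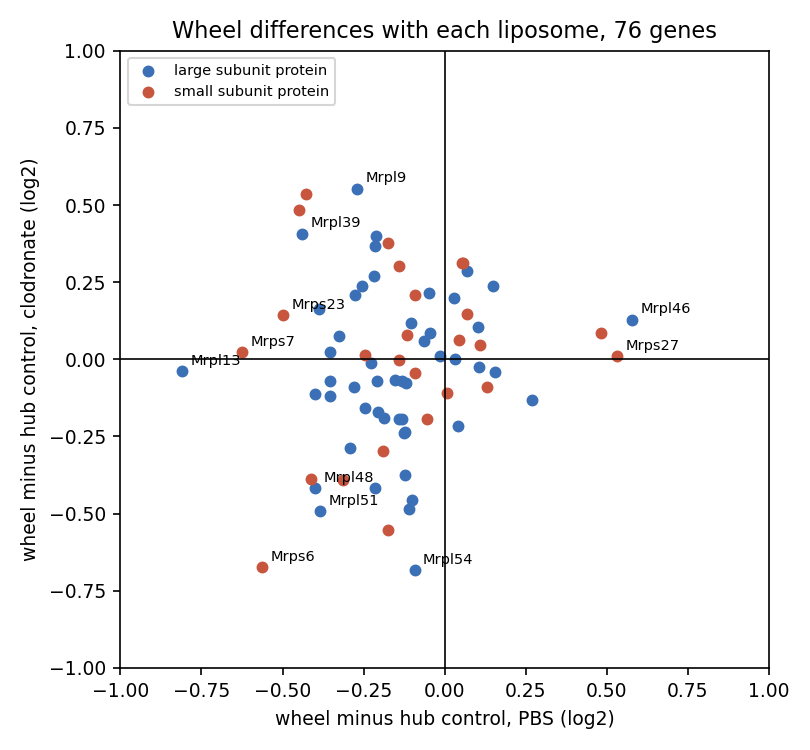
Log2 difference between wheel-running and hub control mice for each of the 76 genes, with PBS liposomes on the horizontal axis and clodronate liposomes on the vertical axis. Mrps6, Mrpl51 and Mrpl48 lie low on both axes, while Mrpl13 and Mrps7 lie low on the horizontal axis and near 0 on the vertical one.

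Whether the wheel difference itself varied with the liposome was tested as the clodronate difference minus the PBS difference. No member was called (0% of all genes). At an unadjusted p under 0.05, 4 members were above 0 and 0 below, against 6.35% and 1.23% of all genes. They were Mrpl39 at 0.85 ± 0.35 (SE), Mrpl13 at 0.77 ± 0.34 (SE), Mrps7 at 0.65 ± 0.26 (SE) and Mrps23 at 0.64 ± 0.27 (SE), none with an adjusted p under 0.625. That of Mrpl13 holds the PBS difference for which the gene was singled out. Without the 5 mice rich in lymphocyte markers 0 members were above 0 and 1 was below at an unadjusted p under 0.05. The median was then 0.045, with 33 of 76 below 0, and only replicates 1 and 2 of the wheel-running mice with clodronate remained. Over the 76 members the median was 0.082, with 28 members below 0 (40.8% of all genes were), and over all genes it was 0.091. With upper-quartile scaling, which moves the median of all genes to -0.0092, the members' median was -0.031 and 40 of 76 were below 0. The data thus did not show that the wheel difference of any member depended on the liposome.

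Of the 4 comparisons, that of the liposomes had the most members on 1 side. Over both activities, 71 of the 76 members were lower with clodronate than with PBS, against 57.4% of all genes, at a median log2 difference of -0.19 (middle 50% of members -0.30 to -0.12), where all genes had -0.042. None of the 76 passed the adjusted threshold, while 31 of 15138 genes (0.205%) did. At an unadjusted p under 0.05, 18 members were lower and 0 higher, against 8.30% and 2.13% of all genes. The count was similar for both kinds of symbol, with 26 of 28 Mrps genes lower (median -0.22) and 45 of 48 Mrpl genes lower (median -0.18). The members were lower also under the other scalings, with a median of -0.14 and 67 of 76 lower under upper-quartile scaling, where all genes had 0.0042.

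Within each activity the direction was the same and the size unequal. In hub control mice 69 of 76 members were lower with clodronate (median -0.24, all genes -0.10), against 65.3% of all genes, and in wheel-running mice 59 of 76 (median -0.14, all genes 0.00020), against 49.9% of all genes. Among hub control mice 1 member, Mrps7, had its clodronate mice fully below its PBS mice, as did 0.575% of all genes (0.0595% the other way): the clodronate mice were at 28.9, 27.1, 18.2, 27.7 and 22.8 CPM, and the lowest PBS mouse at 29.0 CPM. In wheel-running mice no member was apart (0.912% of all genes were, in the lower direction). The 6 hub control mice with PBS enter both this comparison and that of the wheel with PBS, so both hold the same high control values.

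Mrpl17 (minus strand of chromosome 7, 105803206 to 105811099, GRCm38), a large subunit protein with a bacterial relative, came nearest to the threshold and varied least between mice of a group (SD 0.21 on the log2 scale, where the median member had 0.35). With PBS it ran from 56.8 to 84.1 CPM (median 64.8) in hub control mice and from 50.7 to 72.6 CPM (median 61.7) in wheel-running mice. With clodronate it was at 59.5, 51.2, 43.1, 49.4 and 42.6 CPM in hub control mice and at 63.1, 45.2, 42.7, 42.3 and 42.5 CPM in wheel-running mice. Of the 10 clodronate mice 7 were below every PBS mouse. Gm15645 lies over the gene on the opposite strand. The difference was -0.43 ± 0.10 (SE), with an adjusted p of 0.0670. Without wheel-running replicate 1 with clodronate, the highest of its group, it was -0.49 with an adjusted p of 0.0307. It also passed without hub control replicate 1 with clodronate (0.0235) and without hub control replicate 4 with PBS (0.0477). Of the 15138 genes, 34, 146 and 70 were called in these 3 fits, in the order given, against 31 with all mice. In other fits the adjusted limma p of Mrpl17 was higher, at 0.162 with scaling to assigned reads and 0.188 with the replicate block. It was 0.152 without hub control replicate 3 with clodronate and 0.138 without wheel-running replicate 6 with PBS.

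Mrps22 (minus strand of chromosome 9, 98588730 to 98601660, GRCm38), a small subunit protein without a bacterial relative mutations of which cause mitochondrial disease in people, had the lowest difference. With PBS it ran from 10.0 to 28.7 CPM (median 15.6) in hub control mice and from 11.3 to 24.9 CPM (median 14.6) in wheel-running mice. With clodronate it was at 12.6, 9.94, 10.0, 10.4 and 6.64 CPM in hub control mice and at 6.20, 6.85, 10.8, 8.02 and 11.3 CPM in wheel-running mice. The difference was -0.78 ± 0.19 (SE), with an adjusted p of 0.0836, and of 0.0468 where only the 9347 genes above the lowest value in every mouse were tested. It passed also without hub control replicate 1 with clodronate (0.0460). In these fits 68 of 9347 and 146 of 15138 genes were called, against 31 of 15138 in the main fit. The adjusted limma p of Mrps22 was higher in other fits, at 0.178 with upper-quartile scaling and 0.133 without the lymphocyte-rich mice.

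Mrps21, Mrpl49, Mrps2 and Mrps6 followed, with log2 differences of -0.72, -0.56, -0.56 and -0.55 and adjusted p from 0.150 to 0.353. Mrps2, in the small subunit, averaged 22.0 ± 6.6 and 22.6 ± 6.1 CPM in hub control and wheel-running mice with PBS (SD, n = 6 each) and 14.6 ± 4.5 and 14.8 ± 2.2 CPM with clodronate (SD, n = 5 each). Its group means were thus lower with clodronate and close together between activities. Mrps2 was picked for this liposome difference and was not called. Mrpl13 differed by -0.087 ± 0.17 (SE, adjusted p = 0.890). Highest was Mrpl44, a large subunit protein, at 0.13 ± 0.17 (SE, adjusted p = 0.813).

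**Figure D4:**
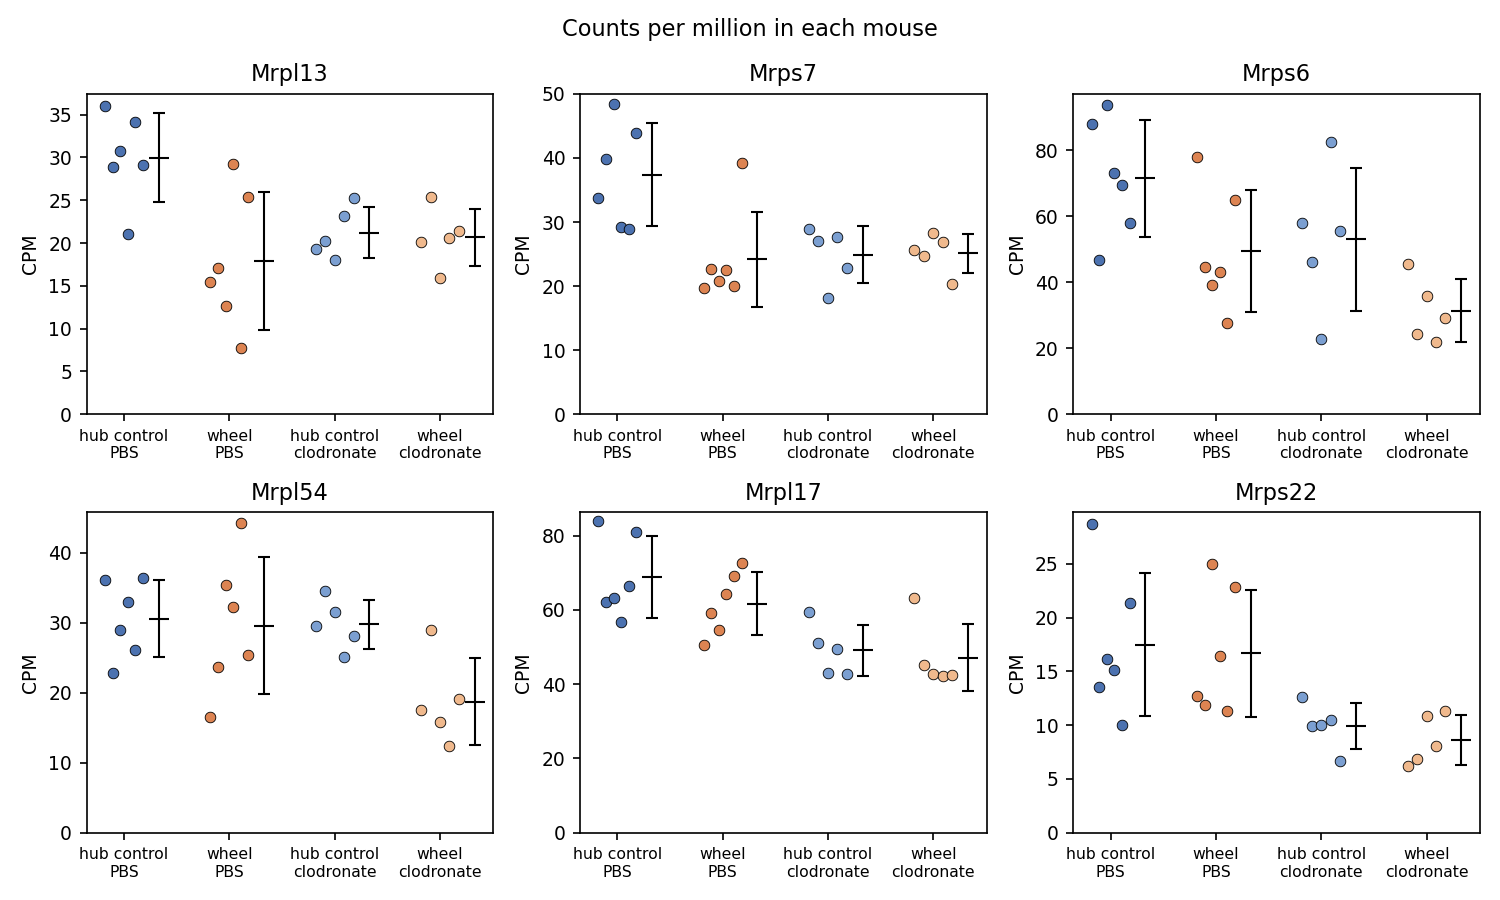
CPM of 6 members in each mouse (points) with group mean ± SD (bars), all axes from 0. Mrpl13 and Mrps7 are lower in most wheel-running mice with PBS, Mrpl54 in 4 of 5 wheel-running mice with clodronate, Mrps6 with the wheel under both liposomes, and Mrpl17 and Mrps22 with clodronate.

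Because many members were lower together with clodronate, their promoters were searched for the motifs of 3 regulators known for nuclear genes of mitochondria: NRF-1 (GCATGCG), ETS factors such as NRF-2 (CCGGAAG) and YY1 (AAGATGG), on both strands and in the window of 250 bases before to 50 bases after the start site. The ETS and YY1 motifs can overlap by the letters AAG, and a promoter was counted for each motif it held. RefSeq promoters (GRCm38.p6) were at hand for 69 of the 78 symbols. The ETS motif was in 37.7% of them, against 9.93% of all promoters and 18.5% of those of the genes tested. NRF-1 was in 11.6%, against 4.01% and 6.71%, and YY1 in 18.8%, against 7.28% and 8.00%. The 150 bases before the start are printed for Mrpl17 and Mrps22, the members with the lowest adjusted p with clodronate, 5′ to 3′ with the motif in capitals (NRF-1 in Mrpl17, where the run read on both strands is 1 base longer, and ETS in Mrps22). Mrpl17 also holds the ETS motif, in the searched window but outside the printed bases. Mrpl17 is on the minus strand at chr7:105811088-105811237 and Mrps22 on the minus strand at chr9:98601680-98601829.
Mrpl17: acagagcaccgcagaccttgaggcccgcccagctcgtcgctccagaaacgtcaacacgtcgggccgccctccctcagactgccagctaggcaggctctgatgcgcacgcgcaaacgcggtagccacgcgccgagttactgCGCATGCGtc
Mrps22: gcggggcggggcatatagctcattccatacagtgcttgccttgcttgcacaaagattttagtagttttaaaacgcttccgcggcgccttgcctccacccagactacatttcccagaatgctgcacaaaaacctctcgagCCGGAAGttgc
With clodronate, the medians of members with and without a motif lay close together. The 25 tested members with the ETS motif had a median log2 difference of -0.17 (24 lower) and the 42 without it -0.22 (38 lower). The 8 with NRF-1 had -0.25 (8 lower) and the 59 without it -0.18 (54 lower). A match of letters is a description and no measured binding.

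Other genes of the same pathway put the family in context, none of them called in any comparison. With PBS liposomes, 17 of 19 genes for the assembly of the mitochondrial ribosome were lower with the wheel (median -0.24), as were 8 of 10 mitochondrial translation factor genes (median -0.18) and the 5 of 5 genes for mitochondrial ribosomal proteins under other symbols (median -0.25). Of the 17 mitochondrial tRNA synthetase genes 9 were lower (median -0.035). Cytosolic ribosomal protein genes, which encode the ribosome of the cytoplasm, were lower in 74 of 75 cases (median -0.19), and nuclear genes of oxidative phosphorylation in 61 of 80 (median -0.085). Genes for mitochondrial transcription and messenger RNA handling were lower in 4 of 6 cases (median -0.40). These are to be read against the 63.8% of all genes that were lower. Under upper-quartile scaling, assembly factors (16 of 19, median -0.15) and cytosolic ribosomal protein genes (60 of 75, median -0.095) were still mostly lower, while nuclear genes of oxidative phosphorylation were split (39 of 80 lower, median 0.0039) and the tRNA synthetase genes turned to a median of 0.052.

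With clodronate against PBS, nuclear genes of oxidative phosphorylation were lower in a like share, 76 of 80 (median -0.26) and 49 of them at an unadjusted p under 0.05. All 10 RNAs from mitochondrial DNA were lower (median -0.25). Cytosolic ribosomal protein genes were mostly higher, 66 of 75 (median 0.13), but without the 5 mice rich in lymphocyte markers 49 of 75 were lower (median -0.059), while the mitochondrial family stayed at 70 of 76 lower (median -0.24). Nuclear genes of oxidative phosphorylation were then lower in 65 of 80 cases (median -0.18). With all mice, assembly factors (10 of 19 lower), translation factors (6 of 10 lower) and tRNA synthetases (9 of 17 lower) were near evenly split. In the wheel comparison with clodronate, cytosolic ribosomal protein genes were higher in 75 of 75 cases (median 0.40), and in 34 of 75 without the lymphocyte-rich mice (median -0.010). Without those mice, the wheel-running mice with clodronate were only replicates 1 and 2.

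**Figure D5:**
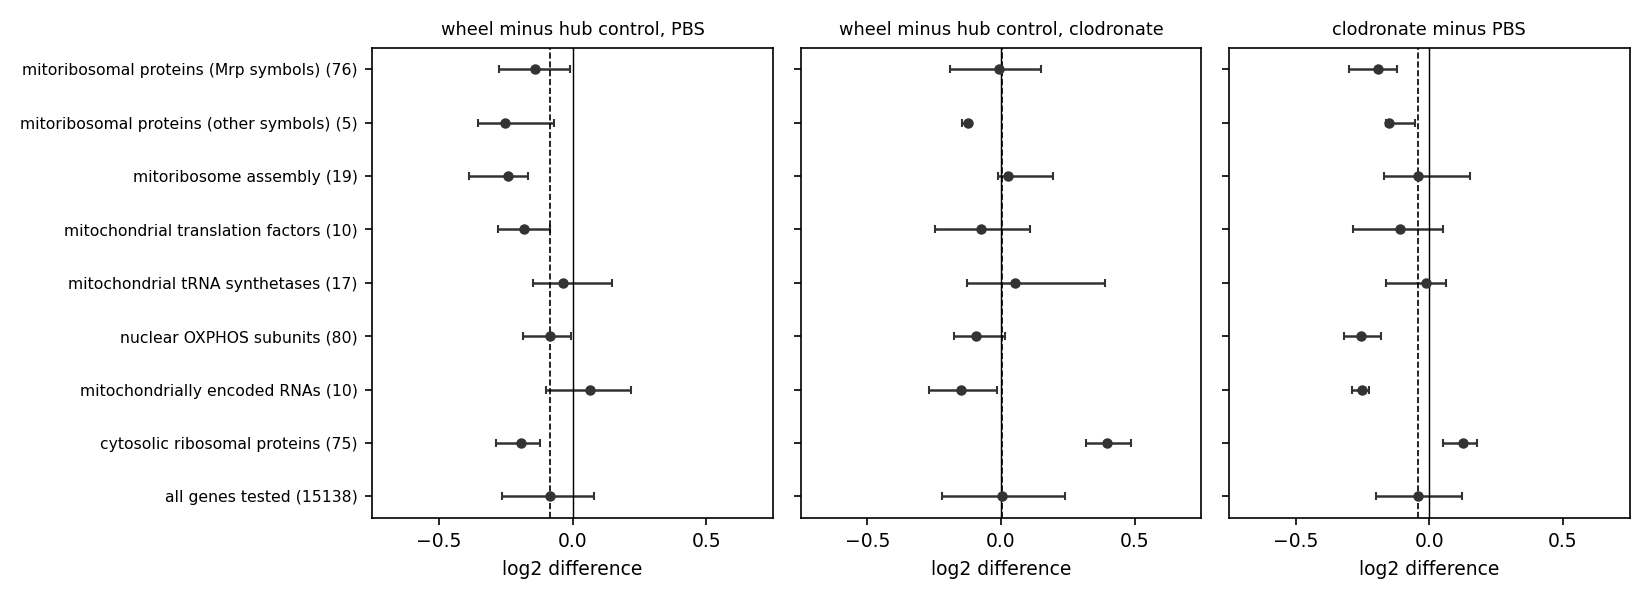
Median log2 difference (points) and middle 50% of genes (bars) for 8 gene groups and all genes tested, in 3 comparisons; the number of genes is in brackets, and the dashed line is the median of all genes. Mitochondrial and cytosolic ribosomal protein genes lie on the same side in the first comparison (-0.14 and -0.19) and on opposite sides in the third (-0.19 and 0.13), where without the lymphocyte-rich mice both are below 0 (-0.24 and -0.059).

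Cell contents also moved with the liposome. All 10 white adipocyte markers were lower with clodronate (median -0.35). Their sums were 18595.4 to 30910.7 CPM in hub control and 20415.4 to 30784.6 CPM in wheel-running mice with PBS, and 11206.6 to 28948.9 CPM and 15186.9 to 23035 CPM with clodronate. The 9 macrophage markers were all lower too (median -0.23), with sums of 225.8 to 632.5 CPM and 252.8 to 626.4 CPM with PBS and 263.2 to 384.1 CPM and 243.0 to 689.5 CPM with clodronate. The median macrophage sums of hub control and wheel-running mice were 448.0 and 422.4 CPM with PBS. With clodronate they were 333.3 and 565.0 CPM, so that the wheel-running mice with clodronate had the highest median. The 9 skeletal muscle markers were all higher (median 1.52), with up to 2876.3 CPM in a PBS mouse and up to 22872.1 CPM in a clodronate mouse. All 12 lymphocyte markers were higher (median 0.87), with sums of 2.07 to 288.0 CPM and 4.38 to 348.8 CPM with PBS and of 0 to 18.9 CPM and 3.17 to 846.9 CPM with clodronate. No adipocyte, macrophage or muscle marker was at the lowest value throughout a group, and no marker of the 4 lists was called. Their part in the members' differences was not tested.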

How the data were processed

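Members and gene lists were chosen with earlier results of these data known. Per the labels, libraries were QuantSeq 3′ FWD. The submitters' processing notes name STAR 2.5.3a and GRCm38; the counter, annotation and strand setting are not given in the sources used here. The authors deposited, for each gene, a CPM signal in which 1 is the floor. Rows for unmapped, multimapping, unassigned and ambiguous reads count in the CPM total and stayed out of tests. Above the floor 100% of values were whole reads (tolerance 0.1), which gave the depths; up to 13 to 20 reads a gene are lost at the floor, so log2(CPM + 1) and limma 3.58.1 (R 4.3.3) were used: 4 group means, eBayes with a variance trend, Benjamini-Hochberg adjustment over genes above 1 CPM in at least 5 of 22 mice. For 106 repeated symbols the row with the highest mean was kept. Single named members were also compared by exact two-sided permutation. Mice were grouped by the labels, which give 1 tissue from each mouse.

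Members named were Mrpl13, the 5 lowest and 5 highest differences in each comparison, the 5 highest and lowest levels, the Mrps18 genes and those that failed the filter. Mrpl14, Mrpl33 and Mrpl48 were added after their values were seen. Alternatives were other pseudocounts, filters and scalings, no variance trend, only the groups compared, a replicate block and leaving out mice singly; leaving out the 5 mice with a mean lymphocyte marker level above 3 on the log2 scale was added after seeing the data. The limma step was tested on simulated data. Gene positions are from GENCODE M21 (GRCm38), copies from BLAST 2.17.0 (last 400 bases, 97% identity), promoters from RefSeq. Python 3.11.15, numpy 2.4.6 and pandas 2.3.3 were used.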

Additional observations from a re-analysis of the deposited data

Results flagged for a closer look

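In 13 of 148 groups of mice tested (37 measures in 4 groups, with 7.4 such groups expected by chance at 5%), 1 mouse stood apart from the rest of its group on the log2(CPM + 1) scale; the family level itself had no such mouse. Among wheel-running mice with PBS, Mrps7 was high in replicate 6 (5.33), Mrpl24 in replicate 5 (5.74) and Mrps18b in replicate 4 (1.79). Among hub control mice with PBS, Mrpl46 was low in replicate 5 (1.32), Mrps21 was low in replicate 4 (2.78) and Mrps18b was high in replicate 1 (1.30). In wheel-running replicate 1 with clodronate, Mrpl17 (6.00) and Mrps18b (1.68) were high, and Mrpl45 (4.75) and Mrpl22 (1, the lowest value there is) were low. Mrpl9 was high in wheel-running replicate 2 with clodronate (4.51), and Mrpl23 in wheel-running replicate 3 (1.70) and hub control replicate 2 (1.76) with clodronate. Those of Mrpl23, Mrps18b and Mrpl22 are near the floor or end at it.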

How the results depend on the processing

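No member was called in the wheel comparisons or their interaction under any setting. The sign of the members' median held under every setting for the wheel with PBS and for clodronate against PBS. It turned in some settings for the wheel with clodronate (-0.0066 in the main fit) and for the interaction (0.082 in the main fit). Members at an unadjusted p under 0.05 with the wheel and PBS numbered 4 in place of 7 under upper-quartile scaling (3 lower and 1 higher). They numbered 4 also under scaling to assigned reads and without the lymphocyte-rich mice (4 lower each). Of all genes 1.80%, 3.27% and 3.34% were lower at this p in these settings, against 4.12% in the main fit. Leaving out a mouse, members at this p numbered 4 to 8. Without hub control replicate 1, 3 were lower and 1 higher (3.18% of all genes lower), and without replicate 3, 4 were lower (3.56%). With the wheel and clodronate such members numbered 3 when only the groups compared were fitted (3.00% of all genes were lower at this p). Under scaling to assigned reads 4 were lower and 2 higher (2.20% of all genes lower). Leaving out a mouse, such members numbered 4 to 7. Without wheel-running replicate 4 or 5, 4 were lower (1.98% and 2.97% of all genes). Without hub control replicate 1, 2 were lower and 3 higher (4.21% of all genes lower). For the interaction such members numbered 1 without the lymphocyte-rich mice (below 0, so that all 4 above 0 were lost). In that fit only replicates 1 and 2 of the wheel-running mice with clodronate remained. Of all genes 1.60% were below 0 at this p in it. Under upper-quartile scaling such members numbered 3 (2 below 0 and 1 above, with 2.59% of all genes below 0), and the members' median was -0.031. Leaving out a mouse, such members numbered 3 to 8. They numbered 7 without hub control replicate 2 or wheel-running replicate 1 with clodronate, and 8 without wheel-running replicate 2 with clodronate. For clodronate against PBS such members numbered 10 under upper-quartile scaling and 11 under scaling to assigned reads, all lower. Of all genes 5.19% and 5.90% were lower at this p there. Leaving out a mouse, such members numbered 12 to 20. With the filter on all 22 mice 1 member was called, as were 68 of 9347 genes. Leaving out a mouse, 0 to 2 members were called. The 2 were called without hub control replicate 1 with clodronate, where 146 of 15138 genes were called, against 31 in the main fit.

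Single members changed sign: with the wheel and clodronate Mrpl13 (0.030 scaled to assigned reads, 0.099 without lymphocyte-rich mice, and -0.11 to 0.047 leaving out a mouse); in the interaction Mrps10, which was not near 0 (-0.40, and 0.17 without lymphocyte-rich mice); with clodronate against PBS, without lymphocyte-rich mice, Mrpl44 (-0.022), Mrpl45 (-0.054), Mrpl46 (-0.053) and Mrps23 (-0.21), Mrpl46 with a pseudocount of 5 (-0.0060), and, leaving out a mouse, Mrps11 (-0.0015 to 0.15), Mrpl46 (-0.16 to 0.14), Mrpl45 (-0.0071 to 0.089) and Mrps23 (-0.035 to 0.11). The cause was not tested.

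The family level depends on the pseudocount: with 5 it was 4.86, 4.74, 4.63 and 4.60 in the 4 groups (hub control and wheel with PBS, then with clodronate), with 0.1 it was 4.35 in wheel-running mice with PBS and 4.20 in hub control mice with clodronate, and with none 4.34, 4.19 and 4.18 in the last 3 groups. Replicate numbers do not pair the mice: deviations of same-numbered mice correlated between -0.25 and 0.52. With the replicate block 0 members were called in all 4 comparisons, and 5, 7, 4 and 14 were at an unadjusted p under 0.05. The floor is 13 to 20 reads, and the values of Mrps18b and Mrpl23 lie at or near it.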
